A study of Mus musculus with 6 samples.

Results

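The genes of eicosanoid synthesis were examined in mouse MLL-AF9 leukemia cells taken from mice given DS-5272 or vehicle. The members were chosen by name: Pla2g4a, Pla2g7, Alox5, Alox5ap, Lta4h, Ltc4s, Ptgs1, Ptgs2, Ptges and Hpgd. Of these 10 genes, 9 had a line of their own among the 26082 names of the expression table. Ptgs1 was listed only in an entry that joins it with Gm13431 and LOC100861645, and that entry is described beside the members but is not counted among them. Both groups came from C57BL/6J mice carrying leukemia made by transducing bone marrow c-Kit+ progenitors with a retrovirus for the MLL-AF9 fusion, which was then passed serially from mouse to mouse. DS-5272 is an oral drug that keeps MDM2 from binding p53. The DS-5272 group (n = 3) received 80 mg/kg by mouth 24 h before the leukemia cells were taken, and the control group (n = 3) received vehicle. The labels give neither the age of the mice nor the Trp53 genotype, and do not say whether a sample is 1 mouse. p-values therefore measure only the spread between these samples.

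Eicosanoids are lipid mediators made from arachidonic acid. Cytosolic phospholipase A2 frees the acid from membranes, and the supply then divides. In the leukotriene branch, 5-lipoxygenase works with its activating protein to make leukotriene A4, which becomes either the neutrophil attractant leukotriene B4 or the cysteinyl leukotrienes. In the prostaglandin branch, cyclooxygenases make prostaglandin H2, from which terminal synthases form prostaglandin E2 and its relatives. Myeloid cells are a main source of leukotrienes, and cyclooxygenase-2 is an inducible enzyme of inflammation.

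Promoter windows were read from RefSeq (GRCm38.p6), running from 250 bases before to 50 bases after a gene's start. Of the 10 genes, 9 had at least 1 window. They are shown here for Alox5, a leukotriene enzyme whose difference held under every alternative analysis run, and for Ptgs2 and Pla2g4a, which are neighbours on chromosome 1. Capitals mark the motifs that were searched on both strands. The TATA box was searched as TATAAA and the short form of the cAMP response element as TGACG. For the E-box, which basic helix-loop-helix factors bind, the letters were CACGTG. For the GC box, bound by factors of the Sp family, they were GGGCGG. The core of the C/EBP factors, which direct myeloid genes, was written TTNNGNAA, where N is any base. The AP-1 site of Fos and Jun proteins was searched as TGANTCA, and the NF-kB consensus and the p53 decamer by their published forms. The windows lie at chr6:116461129-116461428 on the minus strand for Alox5, chr1:150099781-150100080 on the plus strand for Ptgs2 and chr1:149961241-149961540 on the minus strand for Pla2g4a.
Alox5: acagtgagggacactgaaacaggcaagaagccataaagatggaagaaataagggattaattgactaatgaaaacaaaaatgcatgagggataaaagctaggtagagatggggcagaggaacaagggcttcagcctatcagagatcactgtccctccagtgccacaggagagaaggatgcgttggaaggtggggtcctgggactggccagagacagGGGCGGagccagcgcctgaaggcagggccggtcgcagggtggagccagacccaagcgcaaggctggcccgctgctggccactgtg
Ptgs2: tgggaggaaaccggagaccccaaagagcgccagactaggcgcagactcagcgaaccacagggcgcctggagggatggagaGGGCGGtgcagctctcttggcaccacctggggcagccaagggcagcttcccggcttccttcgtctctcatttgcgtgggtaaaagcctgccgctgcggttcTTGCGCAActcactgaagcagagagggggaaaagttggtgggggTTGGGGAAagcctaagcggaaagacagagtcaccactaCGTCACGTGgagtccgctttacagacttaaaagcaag
Pla2g4a: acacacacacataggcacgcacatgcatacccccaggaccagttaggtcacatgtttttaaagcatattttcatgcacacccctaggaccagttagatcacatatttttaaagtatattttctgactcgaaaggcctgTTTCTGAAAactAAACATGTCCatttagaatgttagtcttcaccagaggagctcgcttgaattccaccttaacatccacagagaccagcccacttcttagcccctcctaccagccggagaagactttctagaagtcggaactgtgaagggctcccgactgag

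The Alox5 window held a single marked motif, a GC box 35 bases before the start, and 35.7% of all 32851 windows hold one. The Ptgs2 window held a GC box, C/EBP cores 69 and 25 bases before the start, and a short cAMP response element that shares bases with an E-box 17 bases after it. C/EBP cores were found in 40.7% of all windows, the short cAMP response element in 20.8% and the E-box in 7.15%. The Pla2g4a window held 2 overlapping C/EBP cores and a p53 decamer 100 bases before the start. A p53 decamer was found in 2 of the 10 member windows, both of Pla2g4a, and in 8.36% of all windows. No member window held the AP-1 or NF-kB letters, which 7.81% and 4.51% of all windows hold. These matches are letters in a window and not measured binding sites.

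Values are FPKM (fragments per kilobase of transcript, scaled to the mapped fragments of the library). Read depth, estimated from the smallest steps between FPKM values, was 37300000 to 46000000 fragments in the vehicle samples and 25100000 to 34700000 in the DS-5272 samples. Myeloid and leukemia markers were plentiful, with a summed level of 763 to 952 FPKM with vehicle and 1965 to 3205 FPKM with DS-5272. Not all of them shared this rise. The mean of Meis1 was 75.2 FPKM with vehicle and 90.2 FPKM with DS-5272, and that of Kit 36.0 and 8.90 FPKM. The sum leaves out the entry that joins Hoxa9, Hoxa10 and Mir196b, with means of 259 and 220 FPKM. The libraries numbered 1 stood apart within both groups. Summed immediate early genes were 217 FPKM in vehicle 1 against 2513 and 2706 FPKM in vehicle 2 and 3, and 813 FPKM in DS-5272 1 against 4043 and 5066 FPKM in DS-5272 2 and 3. Markers of maturing neutrophils had the same order within each group, at 45.4, 384 and 631 FPKM with vehicle and 543, 1792 and 3064 FPKM with DS-5272. In these bulk samples, fewer cells of a type and less RNA per cell cannot be told apart.

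Most leukotriene genes were higher after DS-5272, and the 2 prostaglandin genes Ptgs2 and Ptges showed differences of similar size that did not pass the test. With limma on log2(FPKM + 1) and a Benjamini-Hochberg adjusted p under 0.05, 4 members were higher (Pla2g7, Alox5, Alox5ap and Ltc4s) and 0 were lower, since the differences of all 9 were above 0. Over all 11130 genes tested, 24.2% were higher and 22% were lower. All 9 members were tested, but Pla2g7 and Ltc4s passed the filter of a mean of 1 FPKM only through their DS-5272 values. Of the 7 members with a vehicle mean of at least 1 FPKM, 2 were higher, a share near that of all genes. With the replicate number as a block, 7 members were higher, beside 30.3% of all genes. In 5 members every DS-5272 value lay above every vehicle value, as in 32.1% of all genes. Pla2g7 and Ltc4s, which the filter kept only through their DS-5272 values, are among these 5 and among the 7 called with the block.

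**Figure D1:**
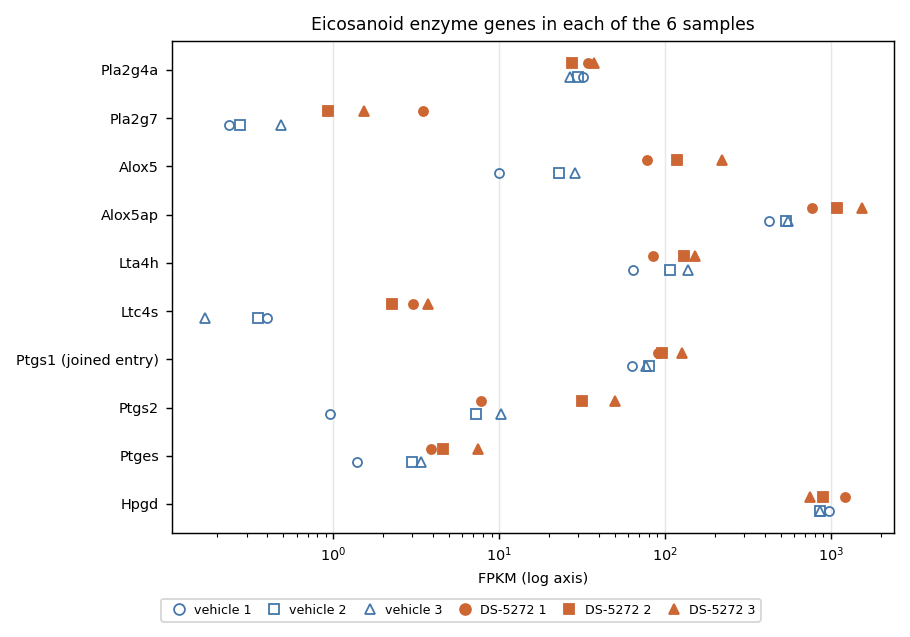
Level of each eicosanoid enzyme gene in each sample, in FPKM on a log axis, with open blue symbols for vehicle, filled orange symbols for DS-5272 and the shape giving the replicate number. The groups are separate for Alox5, Alox5ap, Ltc4s, Pla2g7 and Ptges, while Ptgs2 overlaps because DS-5272 1 (7.78 FPKM) lies below vehicle 3 (10.2 FPKM).

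The members spanned a wide range of levels per transcript length. Hpgd and Alox5ap held the first and second place in each of the 6 samples, and Pla2g7 and Ltc4s held the last 2. In the vehicle samples the order was Hpgd, Alox5ap and Lta4h, followed by Pla2g4a and Alox5, whose order depended on the sample. In DS-5272 2 and 3, Alox5ap took the first place from Hpgd. Alox5 ranked 5, 5 and 4 among the 9 members in vehicle 1 to 3, and 4, 4 and 3 in DS-5272 1 to 3. The levels of Pla2g4a and Alox5 with vehicle overlapped, as did those of Ptgs2 and Ptges.

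Pla2g4a encodes the cytosolic phospholipase A2 that releases arachidonic acid (chr1:149829618-149961290, minus strand). Its level was 31.9, 29.7 and 26.6 FPKM in vehicle 1 to 3 and 34.2, 27.6 and 37.3 FPKM in DS-5272 1 to 3. The groups overlapped, with DS-5272 2 below vehicle 1 and 2. It differed by 0.16 ± 0.14 on the log2 scale (SE, n = 3 per group) with a limma adjusted p of 0.376, and it was -0.10 after rescaling to a common total. A change in this supply step was not detectable.

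Pla2g7 encodes the plasma form of platelet-activating factor acetylhydrolase, a phospholipase that inactivates platelet-activating factor rather than supplying arachidonic acid (chr17:43568098-43612201, plus strand). It was listed at 0.236, 0.274 and 0.485 FPKM with vehicle and at 3.48, 0.923 and 1.53 FPKM with DS-5272. These vehicle levels correspond to an estimated 20 to 39 fragments. Every DS-5272 sample was above every vehicle sample, and DS-5272 1 was the highest. On the log2 scale the groups differed by 1.07 ± 0.31 (SE), with a limma adjusted p of 0.029 and of 0.0499 without the filter on low values. The call was lost without any one of vehicle 1, 2 or 3 (adjusted p of 0.079, 0.086 and 0.060 in limma), without DS-5272 3 (0.056) and after rescaling to a common total (0.056). The log2 difference was 2.12 with a pseudocount of 0.1 and 0.68 without both libraries numbered 1. An exon overlaps 1700071M16Rik on the other strand. DS-5272 1 was also highest for the summed resident macrophage markers, at 421, 187 and 240 FPKM in DS-5272 1 to 3 against 60.2 to 115 FPKM with vehicle. Of these markers, 4 of 7 tested were higher. Among these 4, Adgre1 had another order and was lowest in DS-5272 1, at 59.8, 79.1 and 116 FPKM in DS-5272 1 to 3. Vcam1 was the largest part of the macrophage sum in each vehicle sample and in DS-5272 1. Its level was 36.6, 64.1 and 82.8 FPKM with vehicle and 143, 74.8 and 85.7 FPKM with DS-5272. Vcam1 was not called (limma adjusted p of 0.125). The paper reports that the drug raised VCAM-1 in the c-Kit+ population, so Vcam1 need not mark macrophages here. Summed erythroid markers were also highest in DS-5272 1, at 90.3, 16.7 and 8.20 FPKM in DS-5272 1 to 3 against 1.87 to 3.77 FPKM with vehicle. Their part in the Pla2g7 difference was not tested.

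Alox5 encodes 5-lipoxygenase, the first enzyme of the leukotriene branch (chr6:116410077-116461178, minus strand). Its level was 9.94, 23.1 and 28.6 FPKM in vehicle 1 to 3 and 77.3, 118 and 220 FPKM in DS-5272 1 to 3. The lowest DS-5272 sample stood well above the highest vehicle sample. The mean was 20.5 ± 9.58 FPKM with vehicle and 139 ± 73.7 FPKM with DS-5272 (SD, n = 3), a 6.75-fold difference. The log2 difference was 2.68 ± 0.48 (SE), with a limma adjusted p of 0.0067. It held under 16 of 16 alternatives, with log2 differences of 2.25 to 3.03. Between samples of the same number the log2 difference was 2.84, 2.31 and 2.90, so that the libraries numbered 1 were lowest in both groups and differed by a similar factor.

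Alox5ap encodes FLAP, the membrane protein that presents arachidonic acid to 5-lipoxygenase (chr5:149264767-149288153, plus strand). Its level was 425, 535 and 549 FPKM with vehicle and 767, 1092 and 1529 FPKM with DS-5272. The groups did not overlap, and the libraries numbered 1 were again lowest in both. The mean rose 2.25-fold, from 503 ± 68.1 to 1130 ± 383 FPKM (SD, n = 3). The log2 difference was 1.12 ± 0.26 (SE), with a limma adjusted p of 0.014. Without vehicle 1 the log2 difference was 1.0 and the adjusted p 0.0505. The antisense gene Gm19719 overlaps an exon and was listed at 0.48 to 2.55 FPKM, far below Alox5ap.

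Lta4h encodes leukotriene A4 hydrolase, which makes leukotriene B4 (chr10:93453411-93484875, plus strand). Its level was 64.3, 107 and 137 FPKM with vehicle and 84.8, 130 and 152 FPKM with DS-5272. The groups overlapped broadly, since DS-5272 1 was below vehicle 2 and 3. The log2 difference was 0.27 ± 0.32 (SE) with a limma adjusted p of 0.509, and it was -0.03 without vehicle 1. With the replicate block, the SE was 0.09 and the adjusted p 0.049 in limma, because each DS-5272 sample was above the vehicle sample of its number, by 0.39, 0.27 and 0.15 on the log2 scale. After rescaling to a common total the difference was 0.01.

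Ltc4s encodes leukotriene C4 synthase, which joins glutathione to leukotriene A4 and so opens the cysteinyl path (chr11:50236461-50238616, minus strand). It was nearly absent with vehicle, at 0.396, 0.350 and 0.167 FPKM or an estimated 3 to 9 fragments. With DS-5272 it was at 3.02, 2.26 and 3.74 FPKM, an estimated 34 to 52 fragments. Every DS-5272 sample was above every vehicle sample. The mean was 0.305 ± 0.121 FPKM with vehicle and 3.01 ± 0.740 FPKM with DS-5272 (SD, n = 3), and the ratio of the means was 9.88. On the log2 scale this was a difference of 1.61 ± 0.18 (SE), with a limma adjusted p of 0.0021 and of 0.0049 without the filter on low values. It held under the 15 alternatives that tested it, and was 2.96 with a pseudocount of 0.1. Gm26542 overlaps on the other strand, so a part of these few fragments may belong to it. Of the markers of mast cells and basophils, which also make cysteinyl leukotrienes, Fcer1a and Tpsb2 were at 0 in all 6 samples and the summed level was 20.8 to 24.4 FPKM with vehicle and 14.2 to 23.0 FPKM with DS-5272. Gata2 was the largest part of this sum, at 10.3 to 16.8 FPKM over the 6 samples. Mcpt8 fell from a mean of 8.56 to 1.63 FPKM (limma adjusted p of 0.00073). Cpa3 had means of 1.72 FPKM with vehicle and 2.55 FPKM with DS-5272 and was not called (limma adjusted p of 0.406). Eosinophil markers summed to 7.94 to 10.3 FPKM with vehicle and 8.29 to 29.6 FPKM with DS-5272. Within the DS-5272 group this sum was highest in DS-5272 3, as for Ltc4s, but lowest in DS-5272 1, where Ltc4s was not. Siglecf was the largest part of it, at 7.39 to 23.6 FPKM over the 6 samples. Epx had means of 0.076 FPKM with vehicle and 0.055 FPKM with DS-5272. Prg2, Ear6 and Il5ra had higher means with DS-5272, at 0.934, 2.13 and 0.167 FPKM. The part of eosinophils in the Ltc4s difference was not tested.

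**Figure D2:**
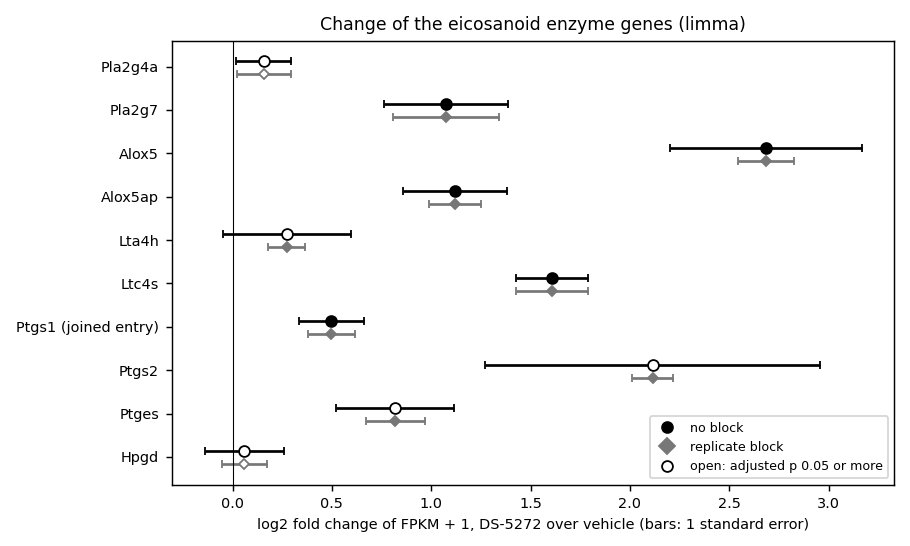
log2 difference in log2(FPKM + 1), DS-5272 against vehicle, for each member and the joined Ptgs1 entry, with the standard error from limma without and with the replicate block (n = 3 per group). Both fits give the same differences, but the standard error of Ptgs2 falls from 0.84 to 0.10 and that of Lta4h from 0.32 to 0.09 with the block.

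Ptgs1 encodes cyclooxygenase-1, the constitutive cyclooxygenase (chr2:36230426-36252272, plus strand). The joined entry that holds it was at 62.9, 80.4 and 76.2 FPKM with vehicle and 90.9, 95.3 and 127 FPKM with DS-5272. The groups did not overlap. The entry differed by 0.50 ± 0.16 (SE) on the log2 scale with a limma adjusted p of 0.043, and 8 of 16 alternatives lost the call (adjusted p of 0.016 to 0.128 over all 16). Among these, the adjusted p was 0.128 without vehicle 1, 0.074 without vehicle 2, 0.092 without vehicle 3, 0.063 without DS-5272 2 and 0.078 without DS-5272 3. The 6 megakaryocyte and platelet markers, cells rich in cyclooxygenase-1, summed to 2.62 to 2.91 FPKM with vehicle and 4.96 to 8.27 FPKM with DS-5272, and none was above 2.45 FPKM in a sample.

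Ptgs2 encodes cyclooxygenase-2, the inducible cyclooxygenase (chr1:150100031-150108227, plus strand). Its level was 0.949, 7.25 and 10.2 FPKM in vehicle 1 to 3 and 7.78, 31.6 and 50.2 FPKM in DS-5272 1 to 3. The groups overlapped, since DS-5272 1 fell between vehicle 2 and vehicle 3. The mean was 6.14 ± 4.73 FPKM with vehicle and 29.8 ± 21.3 FPKM with DS-5272 (SD, n = 3), a 4.86-fold difference. The log2 difference was 2.11 ± 0.84 (SE) and did not pass the threshold, with a limma adjusted p of 0.078. Samples of the same number differed by 8.19-, 4.35- and 4.91-fold, each with DS-5272 higher. With the replicate block, the SE was 0.10 and the adjusted p 0.00035 in limma. Without DS-5272 1 the log2 difference was 2.85 with an adjusted p of 0.027, and without both libraries numbered 1 it was 2.08 with an adjusted p of 0.015. Ptgs2 and Pla2g4a start 138.7 kb apart and run in opposite directions, and Pla2g4a did not share the order of the samples seen for Ptgs2.

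Within each group, the libraries numbered 1 were the lowest for Ptgs2 and also for the immediate early genes, which are switched on within minutes of a stimulus. Fos was at 26.3, 456 and 465 FPKM with vehicle and 138, 909 and 1233 FPKM with DS-5272. Atf3 was at 0.777, 20.2 and 28.8 FPKM with vehicle and 14.7, 142 and 171 FPKM with DS-5272. Of 8 immediate early genes, 1 was higher without the block and 6 were higher with it. As a share of Fos, Ptgs2 was 3.61, 1.59 and 2.2% with vehicle and 5.62, 3.47 and 4.07% with DS-5272, and the groups overlapped (exact permutation test, two-sided, p = 0.2). The part of this signal in the Ptgs2 difference was not tested.

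**Figure D3:**
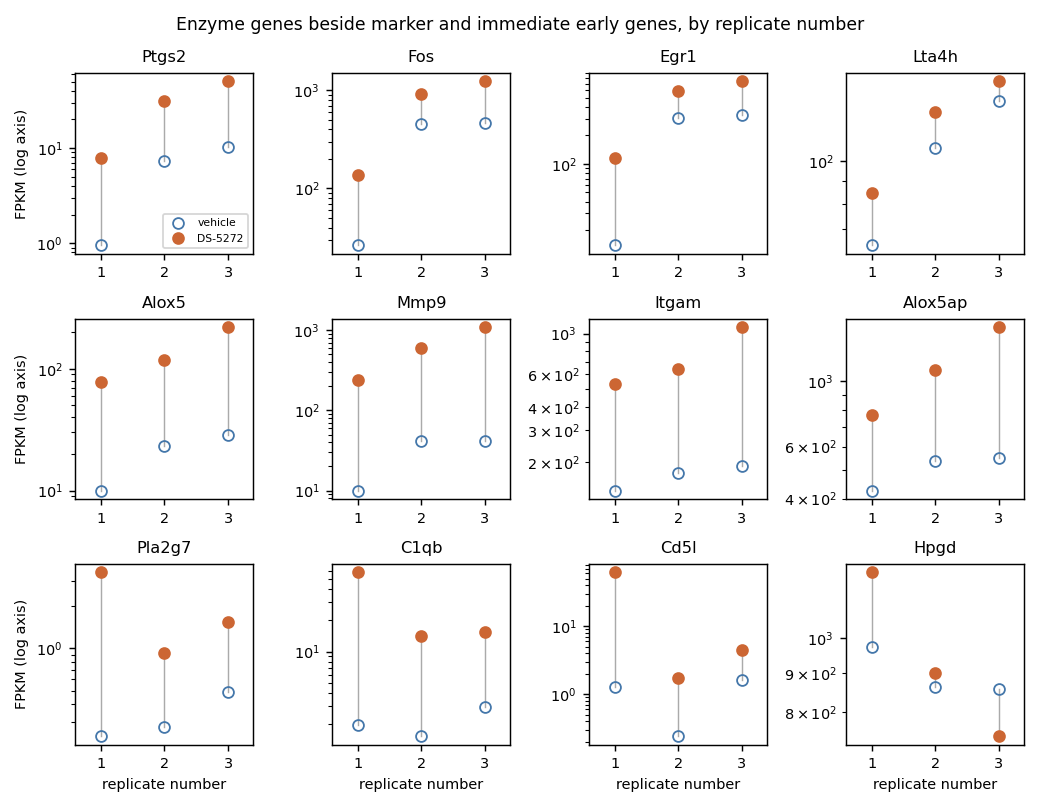
Each panel plots 1 gene by replicate number, in FPKM on a log axis of its own, with open blue points for vehicle, filled orange points for DS-5272 and a line joining the samples of a number. Ptgs2, Lta4h, Alox5 and Alox5ap are lowest in the libraries numbered 1 of both groups, as are Fos, Egr1, Mmp9 and Itgam, whereas Pla2g7, C1qb, Cd5l and Hpgd are highest in DS-5272 1.

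Ptges encodes the inducible microsomal prostaglandin E synthase-1, which acts downstream of cyclooxygenase-2 (chr2:30889471-30929863, minus strand). Its level was 1.39, 2.97 and 3.39 FPKM with vehicle and 3.86, 4.57 and 7.46 FPKM with DS-5272. Each DS-5272 sample was above all vehicle samples, although by a small margin. The mean was 2.58 ± 1.05 FPKM with vehicle and 5.29 ± 1.91 FPKM with DS-5272 (SD, n = 3), a 2.05-fold difference. The log2 difference was 0.82 ± 0.30 (SE) and missed the threshold, with a limma adjusted p of 0.059. It passed with the replicate block (adjusted p of 0.0065) and without DS-5272 1 (log2 difference of 0.98, adjusted p of 0.048).

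Hpgd encodes 15-hydroxyprostaglandin dehydrogenase, which inactivates prostaglandins (chr8:56294585-56321043, plus strand). It was at 973, 862 and 858 FPKM with vehicle and 1220, 899 and 743 FPKM with DS-5272. DS-5272 1 was the highest and DS-5272 3 the lowest of all 6 samples. Hpgd differed by 0.06 ± 0.20 (SE) on the log2 scale with a limma adjusted p of 0.822. Its sign depended on scaling, at -0.08 with a common upper quartile and -0.21 with a common total, and was also negative without DS-5272 1 (-0.13). A change was therefore not detectable in the member with the highest vehicle level.

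The comparison of the branches rests on 4 leukotriene members (Alox5, Alox5ap, Lta4h and Ltc4s) and 2 prostaglandin members (Ptgs2 and Ptges). Without the block, 3 of the 4 leukotriene members were higher and 0 of the 2 prostaglandin members, whose unadjusted p-values in limma were 0.042 for Ptgs2 and 0.029 for Ptges. Among these 3, Ltc4s passed the filter only through its DS-5272 values, and 24.2% of all genes were higher. With the replicate block, all 4 and both were higher, as were 30.3% of all genes. The median log2 difference was 1.36 in the leukotriene branch and 1.47 in the prostaglandin branch, or 0.82 when the joined Ptgs1 entry was added to the latter, beside 0.04 over all genes tested. Which median was higher depended on the setting. Without vehicle 1 they were 1.33 and 0.95, with a pseudocount of 0.1 they were 1.93 and 1.74, and with a mean of at least 5 FPKM they were 1.12 over 3 leukotriene members and 2.11 for Ptgs2 alone. For each sample, the median deviation of the branch genes from their vehicle means was also taken. Its pooled SD over replicates was 0.35 in the leukotriene and 0.88 in the prostaglandin branch, on the log2 scale. The medians of 1.36 and 1.47 lay closer together than either SD. No test of 1 branch against the other was made, since the members were chosen by name and few.

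Ratios within a sample do not depend on its scaling. Alox5 per Alox5ap was 2.34, 4.32 and 5.21% with vehicle and 10.1, 10.8 and 14.4% with DS-5272. The groups did not overlap, and the exact permutation test (two-sided) gave p = 0.1, the smallest that 3 against 3 samples allow. Alox5 per Lta4h was 0.155, 0.216 and 0.209 with vehicle and 0.912, 0.912 and 1.45 with DS-5272, also without overlap (exact permutation p = 0.1). Relative to both its partner and the hydrolase, the enzyme at the head of the branch was higher in each DS-5272 sample than in any vehicle sample. Ltc4s per Lta4h, the 2 fates of leukotriene A4, was 0.616, 0.327 and 0.122% with vehicle and 3.56, 1.75 and 2.46% with DS-5272 (no overlap, exact permutation p = 0.1). Lta4h remained far above Ltc4s in all 6 samples.

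Across the branches, Alox5 per joined Ptgs1 entry was 0.158, 0.287 and 0.375 with vehicle and 0.850, 1.24 and 1.74 with DS-5272, without overlap (exact permutation p = 0.1). Alox5 per Ptgs2 was 10.5, 3.18 and 2.80 with vehicle and 9.95, 3.75 and 4.39 with DS-5272. This ratio was highest in the libraries numbered 1 of both groups, and the groups overlapped (exact permutation p = 0.6). Within the prostaglandin genes, Ptgs2 per joined Ptgs1 entry was 1.51, 9.03 and 13.4% with vehicle and 8.55, 33.1 and 39.6% with DS-5272, with overlap (exact permutation p = 0.3). Ptgs2 per Hpgd was 0.0975, 0.842 and 1.19% with vehicle and 0.638, 3.51 and 6.76% with DS-5272, also with overlap (exact permutation p = 0.3). The joined Ptgs1 entry remained above Ptgs2, and Hpgd above Ptges, in every sample. The summed leukotriene branch over the summed prostaglandin branch with the joined entry was 7.65, 7.34 and 7.96 with vehicle and 9.09, 10.2 and 10.3 with DS-5272, and Alox5ap makes up most of the first sum.

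**Figure D4:**
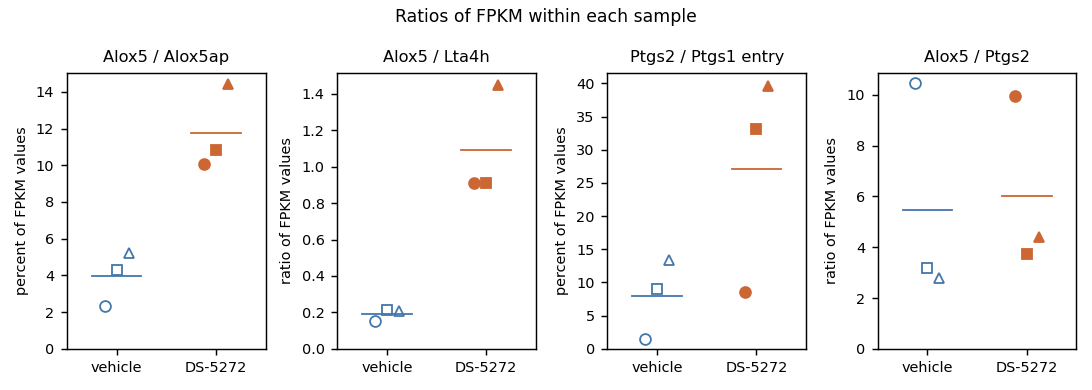
Ratios of FPKM between member genes in each sample on linear axes from 0, with vehicle in blue, DS-5272 in orange, a shape for each replicate number and a line for the group mean. Alox5 relative to Alox5ap and to Lta4h separates the groups, whereas Alox5 relative to Ptgs2 overlaps and is highest in the libraries numbered 1 of both groups (10.5 and 9.95).

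Leukotriene enzymes are also abundant in maturing neutrophils. Within each group, the summed markers of these cells had the same order of samples as Alox5. Of 7 neutrophil markers tested 5 were higher, and 7 with the block. Camp and Ngp were not called without it (limma adjusted p of 0.350 and 0.179). Mmp9 was at 9.93, 41.0 and 41.2 FPKM with vehicle and 236, 597 and 1097 FPKM with DS-5272. Alox5 per Mmp9 was 100, 56.4 and 69.4% with vehicle and 32.7, 19.8 and 20.1% with DS-5272. The groups did not overlap (exact permutation test, two-sided, p = 0.1), so that Mmp9 differed by a larger factor than Alox5. Itgam, the integrin subunit CD11b of myeloid cells, was at 140, 175 and 190 FPKM with vehicle and 530, 646 and 1087 FPKM with DS-5272. Kit, the receptor of progenitors, fell by 1.96 on the log2 scale. Markers of B cells summed to 3.39 to 5.02 FPKM over the 6 samples and those of T cells to 0.279 to 3.47 FPKM. Cd79b was the largest part of the B cell sum, at 3.15 to 4.79 FPKM. Cd4 made up most of the highest T cell sum, at 3.28 FPKM in DS-5272 1. The part of these cells in the level of Alox5 was not tested. Whether Alox5 and Alox5ap differ at a fixed stage of maturation was not tested.

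A further 76 genes of the eicosanoid and platelet-activating factor pathways were listed, of which 40 were tested. Of these, 20 were higher and 6 lower after DS-5272, with a median log2 difference of 0.41, beside 24.2% higher and 22% lower over all genes tested. With the replicate block 24 were higher and 6 lower, beside 30.3% higher over all genes. Among 21 genes that release or remodel arachidonate, 7 were tested, 4 were higher and 1 lower. Mboat7, which puts arachidonate back into phosphatidylinositol, was higher by 1.36 ± 0.17 (SE) on the log2 scale with a limma adjusted p of 0.0028. The phospholipase Pla2g12a fell by 0.89 on the log2 scale (limma adjusted p of 0.013). The lysosomal phospholipase Pla2g15 rose by 0.77, a call lost without vehicle 2, vehicle 3 or DS-5272 2 (limma adjusted p of 0.082, 0.074 and 0.053).

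Among 6 other lipoxygenases, Alox15 and Aloxe3 were tested. Alox15, the 12/15-lipoxygenase of macrophages and eosinophils, differed by -0.08 on the log2 scale. Aloxe3, known from the skin barrier, was at 0.20, 0.30 and 0.14 FPKM with vehicle and 2.22, 2.16 and 4.49 FPKM with DS-5272 (log2 difference of 1.65, limma adjusted p of 0.0039). It passed the filter only through its DS-5272 values. The other 4 were below the filter, and Alox12b and Alox12e were at 0 in all samples.

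Genes of cysteinyl leukotriene conjugation and leukotriene breakdown were higher in 4 of 8 tested and lower in 0. Dpep2, a dipeptidase that turns leukotriene D4 into leukotriene E4, was at 4.92, 13.3 and 13.6 FPKM with vehicle and 34.4, 90.9 and 148 FPKM with DS-5272. Its groups did not overlap, and its log2 difference was 2.88 ± 0.58 (SE) with a limma adjusted p of 0.0092. Mgst1, a microsomal glutathione transferase of the Ltc4s family, was at 39.4, 48.7 and 53.4 FPKM with vehicle and 139, 126 and 202 FPKM with DS-5272 (log2 difference of 1.68, limma adjusted p of 0.0024). Cyp4f18, which inactivates leukotriene B4 in myeloid cells, was higher by 1.03 (limma adjusted p of 0.0044). The other transferases Mgst2 and Mgst3 were not called, with log2 differences of 0.45 and -0.48 (limma adjusted p of 0.227 and 0.082).

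Of the leukotriene and lipoxin receptors, 2 of 3 tested were higher. Fpr2, a formyl peptide receptor that also binds lipoxin A4, was at 9.48, 12 and 11.3 FPKM with vehicle and 63.8, 96.1 and 179 FPKM with DS-5272 (log2 difference of 3.13, limma adjusted p of 0.0020). Cysltr1, a receptor of cysteinyl leukotrienes, was at 4.99, 3.95 and 3.86 FPKM with vehicle and 10.4, 9.67 and 10.8 FPKM with DS-5272 (1.10, limma adjusted p of 0.0019). Its 3 values per group were tight, and they did not follow the replicate number as Alox5 did. Ltb4r1, the high-affinity leukotriene B4 receptor, was at 21.7, 45.3 and 52.1 FPKM with vehicle and 40.8, 58.3 and 85.2 FPKM with DS-5272. It overlapped between the groups, with a limma adjusted p of 0.200 without and 0.0083 with the replicate block.

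Other prostanoid synthases moved in both directions, with 2 of 6 tested higher and 2 lower. Tbxas1, thromboxane synthase, was at 9.41, 9.05 and 9.45 FPKM with vehicle and 18.9, 16.5 and 17.7 FPKM with DS-5272 (log2 difference of 0.86 ± 0.09, limma adjusted p of 0.0019). Its name stood on more than 1 line, and with only the largest line kept the log2 difference was 1.69 (limma adjusted p of 0.00059). Cbr3 was higher by 1.02 (limma adjusted p of 0.038), but not past the threshold without vehicle 2 or 3 or DS-5272 1 or 3 (limma adjusted p of 0.116, 0.113, 0.064 and 0.071). Ptges3, the cytosolic prostaglandin E synthase and co-chaperone p23, fell by 0.69 on the log2 scale (limma adjusted p of 0.018), and missed the threshold without vehicle 1, 2 or 3 (0.054, 0.058 and 0.061 in limma). Ptges and Ptges3, which both form prostaglandin E2, thus had opposite signs. Of the breakdown genes, Ptgr1 and Ptgr2 rose by 0.38 and 0.34, a difference that was 0.12 and 0.08 and not called with a common total. Each of the latter calls was also lost without vehicle 1, 2 or 3 (limma adjusted p of 0.073, 0.10 and 0.072 for Ptgr1, and 0.066, 0.152 and 0.101 for Ptgr2), and that of Ptgr2 without DS-5272 1 or 3 (0.065 and 0.079).

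Of the prostanoid receptors, 3 of 5 tested were higher and 1 was lower. Ptger1 had the highest level of the 5, at 106, 117 and 113 FPKM with vehicle and 152, 148 and 190 FPKM with DS-5272. Its log2 difference was 0.53 (limma adjusted p of 0.015), a call lost without vehicle 1, 2 or 3 (0.0533, 0.0505 and 0.0527 in limma). Ptger4, the prostaglandin E2 receptor EP4, was at 0.38, 0.47 and 0.62 FPKM with vehicle and 2.82, 3.64 and 4.10 FPKM with DS-5272 (log2 difference of 1.59, limma adjusted p of 0.0015), and passed the filter only through its DS-5272 values. Ptger2, the receptor EP2 that like EP4 raises cyclic AMP, was higher by 0.73 (limma adjusted p of 0.0086). Ptger3, the receptor EP3 that lowers cyclic AMP, fell by 0.68 on the log2 scale (limma adjusted p of 0.031), a call lost without vehicle 2 or 3 or DS-5272 1 or 3 (0.112, 0.104, 0.056 and 0.083 in limma). Its means were 1.49 FPKM with vehicle and 0.547 FPKM with DS-5272, and it passed the filter only through its vehicle values.

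In the platelet-activating factor list, 2 of 6 tested were higher and 2 lower. Ptafr, its receptor, was at 9.74, 11.6 and 10.5 FPKM with vehicle and 50.7, 63.8 and 87.3 FPKM with DS-5272 (log2 difference of 2.52 ± 0.20, limma adjusted p of 0.00074). Lpcat2, the inducible acyltransferase that makes the mediator in leukocytes, was at 6.51, 10.4 and 12.9 FPKM with vehicle and 25.6, 38.5 and 57.4 FPKM with DS-5272 (1.89, limma adjusted p of 0.0062). Lpcat1, a related acyltransferase, fell by 0.81 on the log2 scale (limma adjusted p of 0.0055). In the epoxide list only Ephx1 was tested, with a log2 difference of 0.92 and a limma adjusted p of 0.061. The adjusted p was 0.031 with the replicate block, 0.015 without DS-5272 2 and 0.148 without vehicle 2 in limma. Ephx1 passed the filter only through its DS-5272 values, with means of 0.355 FPKM with vehicle and 1.75 FPKM with DS-5272. The highest sample was DS-5272 1, at 3.18 FPKM.

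**Figure D5:**
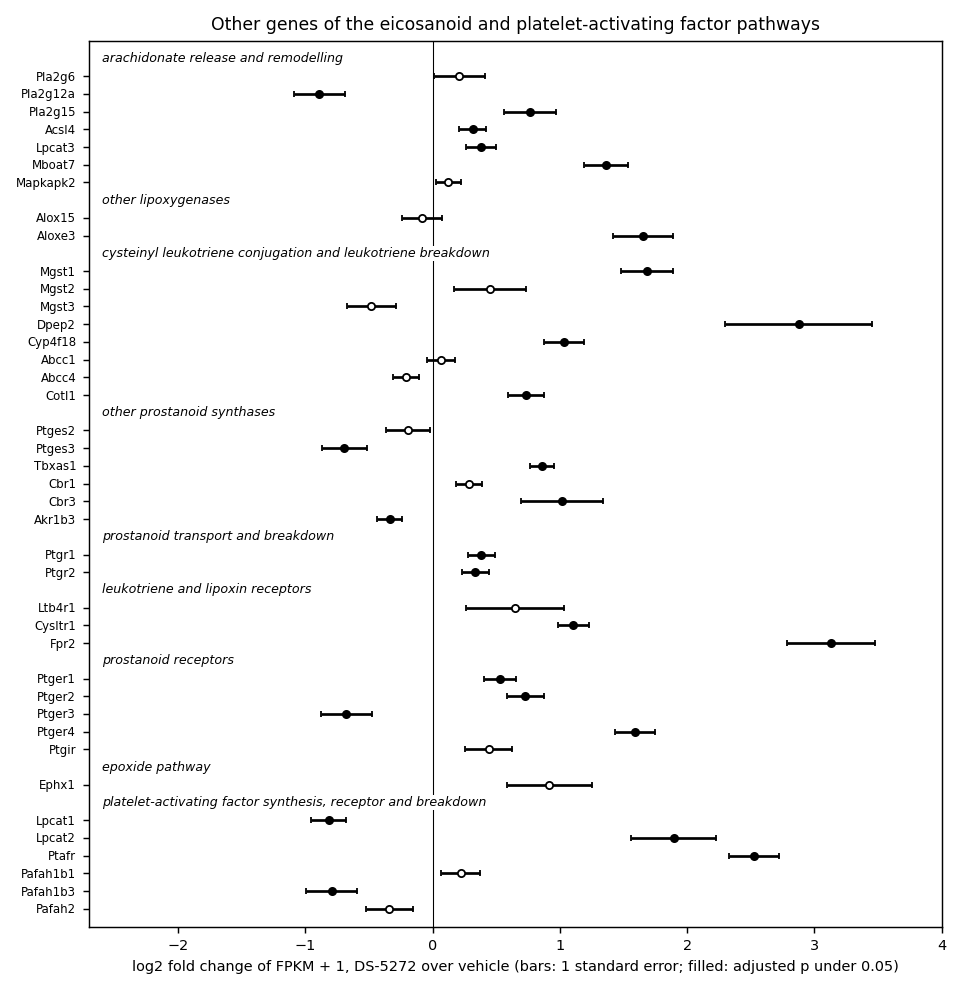
log2 difference in log2(FPKM + 1), DS-5272 against vehicle, for the tested genes of the pathway lists, with filled points where the limma adjusted p is under 0.05 and bars for the standard error (n = 3 per group). Fpr2 (3.13), Dpep2 (2.88) and Ptafr (2.52) lie farthest to the right, and Pla2g12a (-0.89) farthest to the left.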

How the data were processed

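RNA from MLL-AF9 leukemia cells was sequenced with 100-nt paired reads from a strand-specific kit. Per the submitters' notes and methods, the authors trimmed reads with cutadapt 1.8.1, aligned them to GRCm38 with TopHat2 2.1.1 and deposited FPKM values from Cufflinks 2.2.1. FPKM values are already divided by transcript length and library size, so no count model was used. Whether the counting used strand is not given in the sources used here, so overlapping genes cannot be separated. The table has 26632 lines and 26082 names. Lines with 1 name were summed (435 names), and 433 lines join several genes.

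limma 3.58.1 in R 4.3.3 (lmFit, eBayes with trend, two-sided) was run on log2(FPKM + 1) for the 11130 names with a mean of at least 1 FPKM, unblocked, and adjusted by Benjamini-Hochberg over all of them. This scale understates the change of low genes. The fit was tested on simulated data. Python 3.11.15 was used for the other steps. Depth was estimated from FPKM steps, and no counting intervals were derived from it.

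The labels number replicates 1 to 3 in both groups. Deviations from the group means correlated by 0.66, 0.21 and 0.43 between same-numbered samples, and by -0.58 to 0.34 between others. Each same-numbered pair was above 0.1, but so were vehicle 2 with DS-5272 3 (0.34) and vehicle 3 with DS-5272 2 (0.18). These values therefore set apart only the libraries numbered 1, and do not tell numbers 2 and 3 apart. Pairing by number was assumed from these same data, so calls made with the block are not independent of that choice.

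The members and lists were chosen with earlier results of these data known. All members are named, and of each pathway list at most the 3 genes with the largest change. Marker lists are given by counts and sums. Fos, Egr1, Atf3, Mmp9, Itgam, Kit, C1qb, Cd5l, Mgst2, Mgst3 and Acsl4 were named after their values were seen. So were Adgre1, Meis1, Hoxa9, Hoxa10, Mcpt8, Cpa3, Gata2, Camp, Ngp, Ptger1, Vcam1, Siglecf, Epx, Prg2, Ear6, Il5ra, Cd79b and Cd4. Alternatives were the pseudocount, filters, 3 rescalings, the replicate block, no trend, the largest line, a minimum change, each sample left out and, added after seeing the data, both libraries numbered 1 left out and the joined Ptgs1 entry counted.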

Additional observations from a re-analysis of the deposited data

How the results depend on the processing

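Alox5 passed under all 16 alternatives run, Ltc4s under the 15 that tested it and Alox5ap under all but 1. The replicate block raised the members called higher from 4 to 7 by adding Lta4h, Ptgs2 and Ptges, and lost the call of Acsl4 (adjusted p of 0.065 in limma), while with a mean of at least 5 FPKM 2 members were called, since Pla2g7 and Ltc4s are below it. With 1 sample left out, 2 to 6 members were called higher, with 2 without vehicle 1. The leukotriene median was 1.93 with a pseudocount of 0.1, which enlarges low genes. Over all genes, 2697 were higher and 2451 lower, against 2233 and 3179 with a common upper quartile and 1713 and 3555 with a common total, where the median of all genes was -0.08 and -0.19 in place of 0.04. A minimum change of 1 left 978 and 621. With 1 sample left out, 1623 to 2934 were higher and 1389 to 2432 lower, the lowest without vehicle 2, and 1492 were lower without vehicle 3. The cause was not tested.

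Signs turned only in small differences. Hpgd was -0.081 with a common upper quartile, -0.21 with a common total and -0.074 without both libraries numbered 1, and ran from -0.13 to 0.22 with 1 sample left out. Pla2g4a was -0.10 with a common total, Lta4h ran from -0.029 to 0.51 (lowest without vehicle 1) and Alox15 from -0.18 to 0.027 (highest without DS-5272 3) with 1 sample left out. Of 613 values over 39 genes, 515 kept their direction and call, 81 lost the call, 10 gained it and 7 turned. With vehicle, the levels under 1 FPKM of Ltc4s and Pla2g7 rested on an estimated 3 to 9 and 20 to 39 fragments. That of Pla2g7 in DS-5272 2 rested on an estimated 54, and that of Ptgs2 in vehicle 1 on 188.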
